A study of Mus musculus with 6 samples.

Results

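Peaks of the transcription factor subunit NF-YA at genes of MAP kinase cascades and of protein phosphatases were described in cultured mouse muscle stem cells (MuSCs). Members were chosen by gene symbol alone: every peak annotated to a gene whose symbol starts with *Mapk*, *Map2k*, *Map3k*, *Map4k*, *Dusp*, *Ppp1* to *Ppp6*, *Ppm1*, *Ptpn* or *Ptpr*. The rule found 68 of the 9056 peaks, which were annotated to 58 genes. Of all peaks, 6191 carried a gene identifier, from 5024 genes. NF-YA had been profiled by CUT&RUN, in which an antibody guides micrococcal nuclease to its target so that the DNA around it is released and sequenced. The cells were wild-type MuSCs grown in vitro, all of the same genotype and without treatment, so the 3 NF-YA libraries form 1 group of biological replicates. The 3 libraries made with mouse IgG were not analysed here. Because the files hold binding and no expression, the identity of the cells could not be checked on marker genes.

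MAP kinase cascades pass signals from the cell surface and from stress to the nucleus through tiers of kinases: MAP4 kinases act on MAP3 kinases, which phosphorylate MAP2 kinases, which in turn switch on the MAP kinases ERK, JNK and p38. Protein phosphatases take the phosphates off again. Of the dual-specificity phosphatases (DUSPs), the typical ones act on the MAP kinases themselves. The PPP and PPM families remove phosphate from serine and threonine, and tyrosine phosphatases act on receptors and their partners. In MuSCs, p38 and ERK signalling are known to govern activation, proliferation and differentiation. NF-Y is a trimer whose NF-YA subunit reads CCAAT, a box typical of promoters, and the same letters on the other strand read ATTGG.

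The boxes that the peaks of these genes held are printed first, 5' to 3' on the strand that reads CCAAT, with CCAAT in capitals and 10 bases of mm10 sequence to either side. Shown is the box nearest to the peak centre at the 8 highest promoter peaks, then at further B56 genes of PP2A, whose paralogs differ widely in level, and at kinases and phosphatases central to the cascades.
Ppm1b, chr17:84957429-84957453, plus strand: cgaatactagCCAATcccttttagg
Map3k3, chr11:106084181-106084205, minus strand: gtgggctgctCCAATcactgctccg
Ppp2r1a, chr17:20945290-20945314, plus strand: attcgtccggCCAATggtgaatgag
Ppp6r3, chr19:3575981-3576005, minus strand: taagcttctcCCAATttctgacttg
Map3k14, chr11:103267588-103267612, minus strand: gcctcgctagCCAATcgctgctgag
Ppm1k, chr6:57535611-57535635, plus strand: tctcagattgCCAATtaaacgccgt
Ppp2r5d, chr17:46704978-46705002, plus strand: ggctgcgcttCCAATtggcccgaac
Ppp1r10, chr17:35916829-35916853, plus strand: ggagggacgtCCAATccgcgggcga
Ppp2r5a, chr1:191397520-191397544, plus strand: gccctgcttaCCAATgagaacatga
Ppp2r5e, chr12:75596353-75596377, minus strand: ccccgcgccgCCAATccccgaccag
Ppp2r5c, chr12:110447010-110447034, plus strand: gccgtgtcggCCAATggcgtggcgt
Mapk7, chr11:61494310-61494334, plus strand: tttactctgtCCAATcaaaacttac
Mapk9, chr11:49846682-49846706, minus strand: acaggcgggaCCAATtgagactggg
Map2k3 at its promoter, chr11:60931985-60932009, plus strand: ttcaggcgggCCAATcagtacgatg
Map2k3 at its upstream peak, chr11:60927499-60927523, minus strand: tttgtttggaCCAATcacagacttt
Dusp6, chr10:99263175-99263199, minus strand: tctcggtcagCCAATgagcgcgctg
Ppm1d, chr11:85311135-85311159, minus strand: ctgagacagaCCAATcaggagtcaa

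The B56 gene *Ppp2r5b* is not shown, as its peak held no box. The boxes of *Ppp2r1a*, *Map3k14*, *Ppp2r5c*, *Dusp6*, *Ppm1d* and both *Map2k3* peaks also matched the longer NF-Y consensus, in which CCAAT follows 2 purines and precedes C or G and then a purine. The boxes printed above for *Ppm1b*, *Map3k3*, *Ppp6r3*, *Ppm1k*, *Ppp2r5d*, *Ppp1r10*, *Ppp2r5a*, *Ppp2r5e*, *Mapk7* and *Mapk9* did not. Except for *Ppm1k* and *Ppp2r5d*, the peaks of these genes did hold at least 1 other box that matched it. A match is a description of the sequence and not a mapped site of contact.

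Several peaks held boxes in series. The stretches below, printed on the strand of the gene with each box in capitals, show the highest peak, the second highest peak and a weak peak with the most regular spacing of boxes. Only sequence outside annotated untranslated regions is shown.
Ppm1b, chr17:84957434-84957573, plus strand: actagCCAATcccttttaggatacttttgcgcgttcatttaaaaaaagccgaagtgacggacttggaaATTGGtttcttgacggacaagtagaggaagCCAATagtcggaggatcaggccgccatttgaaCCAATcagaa
Map3k3, chr11:106084271-106084394, plus strand: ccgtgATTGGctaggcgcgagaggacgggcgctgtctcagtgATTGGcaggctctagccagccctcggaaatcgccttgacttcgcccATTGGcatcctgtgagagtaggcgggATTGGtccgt
Map4k4, chr1:39893226-39893360, plus strand: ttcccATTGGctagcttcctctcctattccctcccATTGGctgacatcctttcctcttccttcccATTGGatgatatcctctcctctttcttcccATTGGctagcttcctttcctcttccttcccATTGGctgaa

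The peak at *Ppm1b* held 11 boxes in 1104 bp, 4 of them in the stretch shown. The *Map3k3* peak held 8 boxes in 859 bp, and the 4 shown all read ATTGG on the gene's strand. The *Map4k4* peak lay 7621 bp upstream of the gene start and held 5 boxes in 170 bp, with 30 bp from each box to the next. Over all 68 peaks there were 115 boxes in 50 peaks, and 12 peaks held 3 or more. In 49 cases a box had a neighbour on the same strand within its peak, 8 of them 30 to 32 bp away. The pairs of the *Map4k4* peak are among these 8, and the sequence printed for it repeats with few changes every 30 bp. The spacing in all gene-annotated peaks is not given here, so these counts have no background.

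The levels are reads per peak that the authors scaled by a size factor for each library and rounded, referred to as normalised reads, and longer peaks can hold more of them. The sums over all peaks were 319455, 335280 and 341177 in replicates 1, 2 and 3, and the 68 peaks took 1.32%, 1.40% and 1.43% of these sums. From the rounded values, with very small values per read left out, 1 read was worth an estimated 0.664, 1.48 and 1.02 normalised reads. This puts an estimated 481353, 226935 and 334615 reads in peaks. The median member peak thus rested on an estimated 35, 19 and 25 reads. Taking 3 reads as the floor, which is worth 1.99, 4.43 and 3.06, 7 member peaks (10.3%) were at or below it in at least 1 library, beside 15.2% of gene-annotated peaks. These were peaks of *Dusp29*, *Map4k1*, *Ppp5c*, *Ppp1r35*, *Ptprf*, *Ppp1ca* and *Ppp2r3c*. With 1 group of 3 libraries no two-sided exact sign-flip test could go below p = 0.25, so differences are given with their spread and without a test.

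Across the annotation, GENCODE M21, the rule matched 203 protein-coding genes. Of these, 57 (28.1%, 95% Wilson interval 22.3 to 34.6%) had at least 1 annotated peak, beside 19.0% of all 21938 protein-coding genes and 20.3% when olfactory and vomeronasal receptor genes were set aside. A further member, *Dusp29*, is listed there under the symbol *Dupd1*. The genes of the kinase cascades and the phosphatases had nearly the same share, 15 of 54 (27.8%) and 42 of 149 (28.2%). Peaks within 1000 bp of the start were found for 48 of the 203 genes (23.6%), beside 14.8% of all coding genes. These shares cover genes of very different expression, which was not measured here.

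Between families the shares ranged from 0 of 3 to 8 of 16. PP2A is the trimeric serine/threonine phosphatase built from scaffold, catalytic and regulatory subunits. It had peaks at 8 of 16 genes (95% Wilson interval 28.0 to 72.0%). This was the only family interval wholly above the background of 19.0%. The intervals were not adjusted for the number of families compared. The PP2A interval also included the 28.1% of all rule genes, so PP2A was not shown to differ from the rule genes as a whole. Of the PP2A genes with a peak, *Ppp2ca*, *Ppp2r5b* and *Ppp2r3c* had mean levels below 10 normalised reads. The MAP2 kinases had peaks at 3 of 7, the MAP4 kinases at 2 of 5, PP4, PP5 and PP6 at 4 of 11, the PPM phosphatases at 4 of 12 and the MAP3 kinases at 6 of 19. PP1 had peaks at 12 of 43 genes, non-receptor tyrosine phosphatases at 5 of 17, DUSPs at 6 of 24 and MAP kinases at 3 of 13. The lowest shares were those of calcineurin with 1 of 5, kinase scaffolds and partners with 1 of 7, receptor tyrosine phosphatases with 2 of 21 (9.52%, 2.65 to 28.9%) and MAPK-activated kinases with 0 of 3. All these other intervals included the background.

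**Figure D1:**
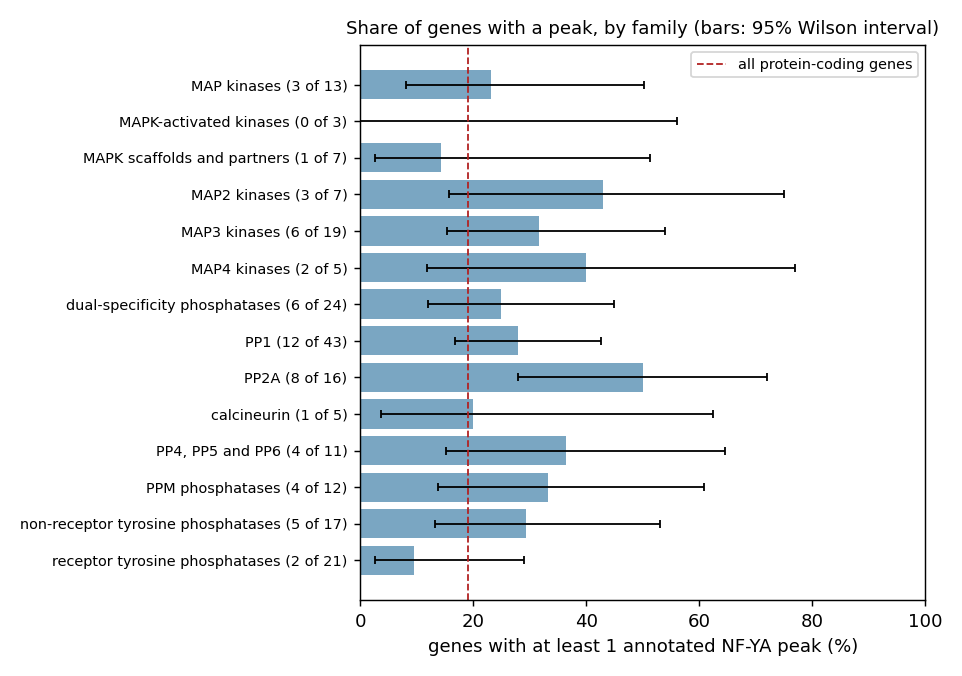
Share of protein-coding genes with at least 1 annotated NF-YA peak in percent, for each of 14 families, with the number of genes in brackets. Black lines are 95% Wilson intervals and the dashed line is the 19.0% of all protein-coding genes. PP2A stands highest, with 8 of 16 genes, and receptor tyrosine phosphatases at 9.52%.

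The 15 highest peaks held 71.8% of the summed mean level of all 68, and the first 4 held 39.0%. Those 4 ranked 4, 29, 84 and 99 among all 9056 peaks. Of the 15, 13 were promoter peaks, meaning that the peak centre lay within 1000 bp of the start of the annotated gene, and 12 reached across the start itself. All 15 held at least 1 CCAAT box, 12 of them within 50 bp of the centre. The upper quartile of all peaks began at 36.7 normalised reads. Of the 2012 gene-annotated peaks in it, 1650 were promoter peaks and 75.0% held a box within 50 bp of the centre. Of all gene-annotated peaks, 69.4% held a box, and of those at promoters 61.1% reached across the start. The 15 were 299 to 1104 bp long, beside a median of 215 bp for gene-annotated peaks. Longer peaks have more room for a box or a start, and peaks of equal length were not compared.

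**Figure D2:**
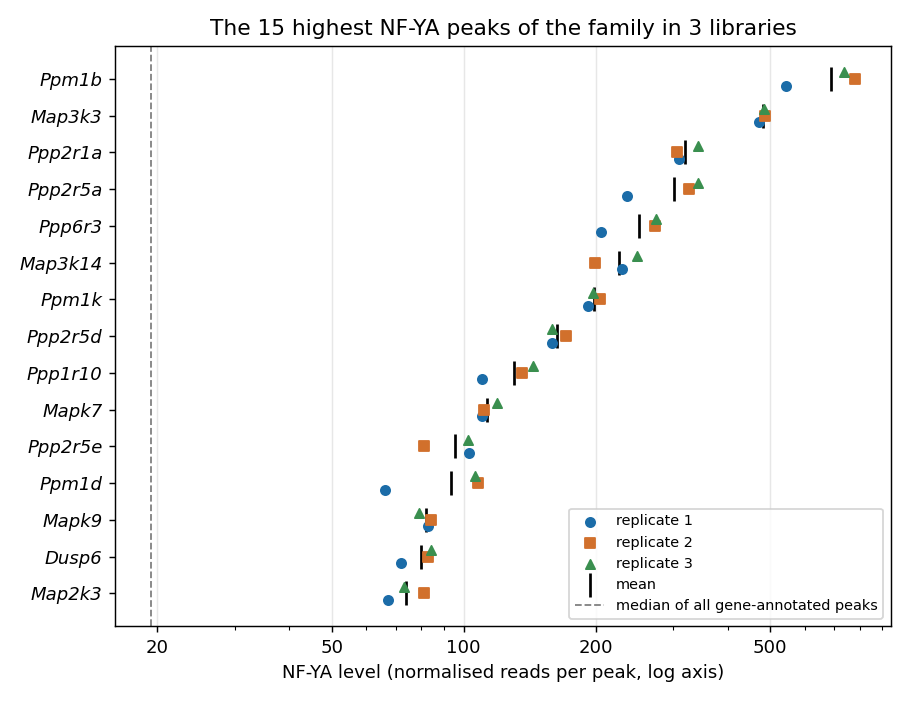
NF-YA level of the 15 highest peaks in each of 3 libraries, in normalised reads per peak on a log axis, with the mean as a black bar. The dashed line is the median of all gene-annotated peaks, 19.3. *Ppm1b* lies highest with 544 to 782 and *Map2k3* lowest of the 15 with 67 to 81.

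Among the MAP kinases, *Mapk7*, which encodes ERK5, had the highest peak, with 110, 111 and 119 normalised reads in replicates 1, 2 and 3. The peak spanned the gene start on chromosome 11, from 61494076 to 61494604, and its mean was 113 ± 4.93 (SD, n = 3). *Mapk9*, the gene of JNK2, had 83, 84 and 79 in a peak centred 67 bp upstream of its start, at 49846525 to 49846844 on the same chromosome. Both were steady over the libraries, with a coefficient of variation (CV) of 4.35% and 3.23%, below the 9.64% and 11.3% that counting alone would give at these depths. No peak was annotated to the genes of ERK1 (*Mapk3*), JNK1 (*Mapk8*) or any of the 4 p38 kinases, *Mapk14* included. For *Mapk14*, the window from 250 bp before to 50 bp after the gene start did hold a CCAAT box, and for *Mapk3* and *Mapk8* it held none. *Mapkbp1*, a JNK scaffold, had 23, 19 and 21.

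*Map2k3* encodes MKK3, which activates p38, and was the only member gene with 3 or more peaks. It had 5. The highest lay 4513 bp upstream of the start, at chromosome 11, 60927371 to 60927669, with 67, 81 and 73 normalised reads. The promoter peak, at 60931807 to 60932100, followed with 64, 61 and 63. The spread of the promoter peak was small, with a CV of 2.44%. The mean levels of the upstream and the promoter peak were 73.7 ± 7.02 and 62.7 ± 1.53 (SD, n = 3). Their ranges over the libraries did not overlap, but in replicate 1 the values were as close as 67 and 64. Their boxes differed in setting: the upstream peak held 2 and the promoter peak 1, each matching the longer consensus. A further peak 1048 bp upstream, at 60930783 to 60931188, had 23, 37 and 57 and held no box in its 406 bp. It was the most variable member with a mean of at least 10, with a 2.48-fold span between libraries and a CV of 43.8%. The remaining 2 peaks were intronic, with 39, 24 and 32 at 1774 bp and 8, 6 and 8 at 3484 bp downstream of the start.

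**Figure D3:**
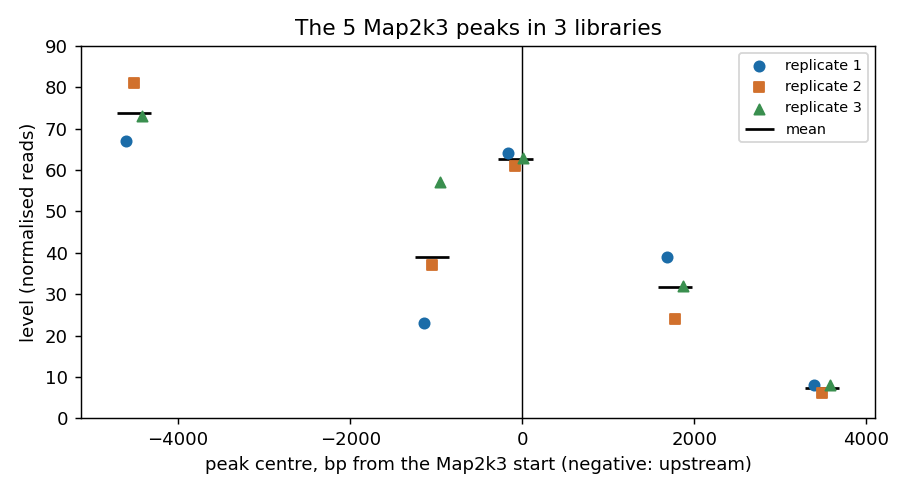
Levels of the 5 *Map2k3* peaks in 3 libraries in normalised reads, against the distance of the peak centre from the gene start in bp, with black bars for the means. Points of the same peak are set apart sideways for legibility. The peaks 4513 bp upstream and at the start lie at 61 to 81, and the peak between them spans 23 to 57.

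The other MAP2 kinases with a peak were *Map2k1*, the gene of the ERK kinase MEK1, with 37, 34 and 29, and *Map2k7*, the gene of the JNK kinase MKK7, with 10, 7 and 13. Both peaks reached across the gene start. *Map2k1* held 2 boxes at its centre and *Map2k7* held none. No peak was annotated to *Map2k2*, *Map2k4*, *Map2k5* or *Map2k6*, and the promoter windows of all 4 held no CCAAT. The window of *Map2k7*, which had a peak, held none either, and of all coding genes 39.1% held one.

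*Map3k3*, which encodes MEKK3, a kinase upstream of ERK5 and p38, had the second highest peak of all members. It had 471, 486 and 485 normalised reads in a peak of 859 bp on chromosome 11, from 106083803 to 106084661. The libraries differed by a factor of 1.03, and the CV of 1.74% was below the 4.68% that counting alone would give. With a mean of 481 ± 8.39 (SD, n = 3) it ranked 29 among all peaks. *Map3k14*, the gene of the NF-kappaB-inducing kinase NIK, had 230, 199 and 249 in a peak across its start, at 103267379 to 103267816 on chromosome 11. *Map3k9*, a mixed-lineage kinase, had 58, 41 and 44. *Map3k12*, the gene of the dual leucine zipper kinase, had 33, 49 and 54, in a peak that lay also within 1000 bp of the start of *Tarbp2*. *Map3k4* had 15, 28 and 16, 9177 bp upstream of its start, and *Map3k7cl*, which resembles part of the kinase TAK1, had 7, 9 and 10. The core genes *Map3k1*, *Map3k5* and *Map3k7* had no annotated peak.

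*Map4k4*, a kinase upstream of JNK, had 2 peaks and neither was at its start. The one with the 5 evenly spaced boxes had 10, 21 and 11, a 2.1-fold span, and the other, 5636 bp upstream, had 21, 33 and 25. In both, replicate 2 was highest. *Map4k1* had 7, 3 and 14, of which the value in replicate 2 was under the floor of 3 reads.

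Of the dual-specificity phosphatases, *Dusp6*, the cytoplasmic ERK phosphatase, had the highest peak. It had 72, 83 and 84 normalised reads at chromosome 10, 99263013 to 99263349, across the gene start. *Dusp8*, which acts on JNK and p38, had 44, 71 and 90 in an intronic peak 6751 bp from its start, and 7, 7 and 8 in another, 458 bp from it. *Dusp7*, another ERK phosphatase, had 54, 56 and 55. Of the 10 typical MAP kinase phosphatases these 3 had an annotated peak. Among the atypical members *Dusp23* had 69, 75 and 68 and *Dusp28* had 56, 47 and 56. *Dusp14* had 15, 12 and 13, and *Dusp29* had 1, 12 and 10. No peak carried the symbols *Dusp1*, *Dusp4*, *Dusp5*, *Dusp10* or *Dusp16*.

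For *Dusp10*, which acts on p38 and JNK, the absence rests on how peaks were assigned. A peak at chromosome 1, 184033991 to 184034544, had 196, 170 and 196 normalised reads and lay within 1000 bp of an annotated *Dusp10* transcript start, but was assigned to *1700056E22Rik*. In level it would have stood among the 8 highest members. Near *Dusp1*, peaks with 8, 10 and 8 and with 6, 6 and 0 were assigned to ENSMUSG00000118107. Counting peaks within 1000 bp of any transcript start of a gene added 6 genes and raised the share of genes with a peak from 28.1 to 31.0%, while that of all coding genes rose from 19.0 to 22.2%. This choice was made after the values were seen.

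PP2A genes carried 4 of the 15 highest peaks. *Ppp2r1a*, the gene of the scaffold subunit, had 310, 307 and 343 normalised reads in a peak across its start, at chromosome 17, 20944996 to 20945891. Its 5 boxes all lay more than 100 bp from the peak centre. *Ppp2ca*, one of the 2 genes of the catalytic subunit, had only 9, 7 and 8, and *Ppp2cb* had no annotated peak. *Ppp2r3c* had 5, 4 and 0, the lowest mean of all members.

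The B56 regulatory subunits, which direct PP2A to its substrates, had peaks at 5 of 5 genes, and the B55 subunits, *Ppp2r2a* to *Ppp2r2d*, at 0 of 4. This pairing was chosen after the values were seen. The B56 levels spanned a wide range. *Ppp2r5a* had 236, 327 and 342, *Ppp2r5d* had 159, 171 and 159, and *Ppp2r5e* had 103, 81 and 102. *Ppp2r5c* had 20, 18 and 18 and, 551 bp upstream of the start, 10, 9 and 7. *Ppp2r5b* had 9, 10 and 9. The ranges over libraries of *Ppp2r5a*, *Ppp2r5d* and *Ppp2r5e* did not overlap, and all values of these 3 genes lay above those annotated to *Ppp2r5b* and *Ppp2r5c*. The peaks of these 3 were also longer, with 801, 553 and 406 bp beside 144 bp for *Ppp2r5b* and 141 and 137 bp for *Ppp2r5c*. Per kb of peak the means were 377, 295 and 235, beside 64.8 for *Ppp2r5b* and 132 and 63.3 for *Ppp2r5c*. A further peak near another *Ppp2r5c* transcript start, at chromosome 12, 110485532 to 110485828, had 35, 52 and 35 and was assigned to ENSMUSG00000113585. The *Ppp2r5a* peak, at chromosome 1, 191397039 to 191397839, was the highest member outside a promoter. It was centred in an intron, 5833 bp into the gene, but 398 bp from the start of another annotated *Ppp2r5a* transcript. Of the 4 B55 genes, *Ppp2r2b* and *Ppp2r2d* held a CCAAT in their promoter window.

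Among PP1 genes the highest peak was that of *Ppp1r10*, the gene of the nuclear targeting subunit PNUTS, with 110, 136 and 144 normalised reads at chromosome 17, 35916327 to 35916996. The start of *Mrps18b* lay within 1000 bp of the same peak centre. *Ppp1r7*, the gene of the PP1 regulator SDS22, had 65, 72 and 67 beside a weaker peak of 9, 18 and 10, both close also to *Pask*. *Ppp1r3f* had 56, 43 and 57 beside 8, 13 and 10, and *Ppp1r3c*, like it a glycogen-targeting subunit, had 27, 28 and 27. *Ppp1r15b*, whose product keeps the translation factor eIF2alpha dephosphorylated, had 49, 35 and 53 and *Ppp1r15a*, its stress-induced relative, 3, 12 and 14. *Ppp1r11*, a PP1 inhibitor, had 13, 10 and 21, a 2.1-fold span. The catalytic gene *Ppp1ca* had 5, 3 and 5, and *Ppp1cb* and *Ppp1cc* had no annotated peak. The remaining PP1 members, *Ppp1r16a*, *Ppp1r12b*, *Ppp1r27* and *Ppp1r35*, had means from 6.00 to 31.0.

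*Ppp6r3*, the gene of a regulatory subunit of PP6, had 206, 273 and 274 normalised reads across its start, at chromosome 19, 3575705 to 3576201. That peak of 497 bp held 8 boxes, as many as *Map3k3*. *Ppp4c* had 9, 10 and 14, *Ppp4r4* had 14, 10 and 7, and *Ppp5c* had 11, 3 and 8. *Ppp3ca*, the gene of a catalytic subunit of calcineurin, had 35, 28 and 42, and *Ppp3cb*, *Ppp3r1* and *Ppp6c* had no annotated peak.

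The PPM phosphatases, which depend on metal ions, held the highest member peak. *Ppm1b* (ENSMUSG00000061130), whose product acts on the kinases TAK1 and IKK, had 544, 782 and 737 normalised reads at chromosome 17, 84956910 to 84958013, a mean of 688 ± 126 (SD, n = 3) and rank 4 of all 9056 peaks. The peak was centred in an intron, 720 bp downstream of the start, and replicate 1 was lowest. Its CV of 18.4% exceeded the 3.91% that counting alone would give. *Ppm1k*, the gene of the mitochondrial phosphatase that activates branched-chain amino acid breakdown, had 192, 205 and 197, and a second peak 9635 bp upstream had 9, 10 and 12. *Ppm1d*, the gene of the p53-induced phosphatase WIP1, had 66, 108 and 106. *Ppm1a* had 49, 55 and 45 in an intron, 2974 bp from its start and 312 bp from the start of another *Ppm1a* transcript. The core gene *Ppm1g* had no annotated peak.

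Peaks of tyrosine phosphatase genes had means from 5.0 to 52.3. *Ptpn18* had the highest with 44, 41 and 72, followed by *Ptpn12* with 19, 30 and 25, *Ptpn13* with 23, 15 and 22, *Ptpn3* with 13, 22 and 20 and *Ptpn4* with 24, 15 and 13. The core genes *Ptpn1*, *Ptpn2* and *Ptpn11* had none. Of the receptor-type genes, *Ptprs* had 11, 21 and 14, 1894 bp upstream of its start, and *Ptprf* had 9, 4 and 2, 4290 bp upstream. Of the 47 core kinase and phosphatase genes listed for this comparison, 21 had a peak (44.7%), beside 28.1% of all genes of the rule and 19.0% of all coding genes. The list was written with earlier results of these data known, so this share is no independent evidence. Among the 26 without one, *Mapk14*, *Dusp16* and *Ptpra* held a CCAAT in their promoter window.

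In position, 51 of the 68 peaks (75.0%, 63.6 to 83.8%) were promoter peaks, beside 60.5% of gene-annotated peaks. None lay between 758 and 1048 bp from the start, so the limit of 1000 bp divided no close neighbours: *Dusp7* and *Ppp1r15a*, at 758 bp, were the last inside and the *Map2k3* peak at 1048 bp the first outside. By centre, 50 peaks lay upstream of the gene, 9 in introns, 8 in 5' untranslated regions or non-coding exons, and 1, that of *Ppp1r35*, in a coding exon. The 17 other peaks were split into 10 upstream and 7 intronic ones. In 10 cases (14.7%), the start of another coding gene lay within 1000 bp of the centre, beside 14.6% of gene-annotated peaks. Of the 58 genes, 7 (12.1%) had more than 1 peak, compared with 18.3% of all genes with a peak.

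**Figure D4:**
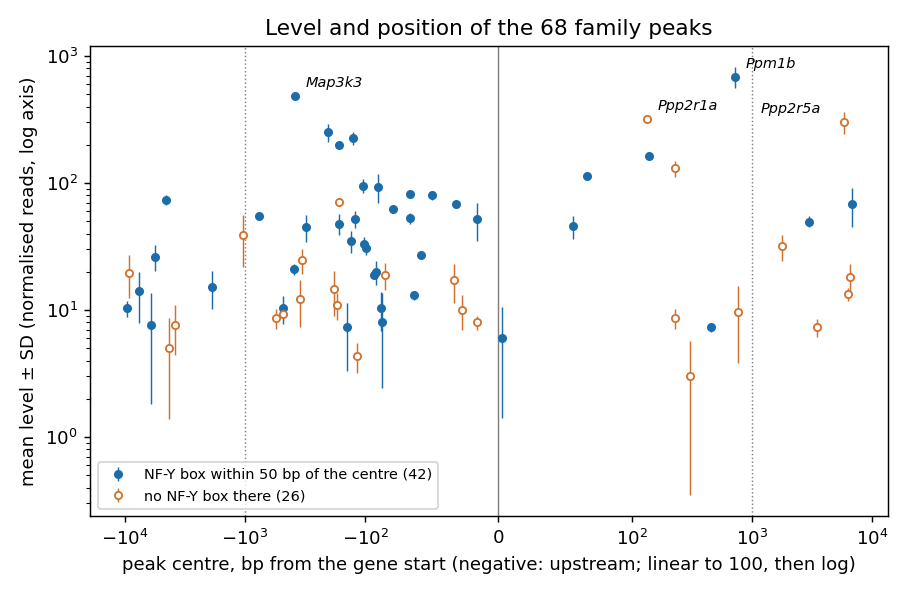
Mean level ± SD over 3 libraries of the 68 peaks, in normalised reads on a log axis, against the distance of the peak centre from the gene start in bp. Filled points mark the 42 peaks with a CCAAT box within 50 bp of the centre and open points the other 26, and dotted lines mark 1000 bp. Most peaks lie just upstream of the start, and *Ppp2r5a* stands out beyond 1000 bp.

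The median level of member peaks was 23.0, 27.5 and 25.0 in replicates 1, 2 and 3, compared with 18, 19 and 19 for all gene-annotated peaks, a log2 ratio of 0.43 ± 0.094 (SD, n = 3). Among promoter peaks alone the ratio was 0.05. Among the other peaks the members had medians of 15, 22 and 16, compared with 11, 13 and 12, a log2 ratio of 0.54 ± 0.190 (SD, n = 3) over 17 member peaks. Within the members, promoter peaks had a higher median than the others in each library, by a log2 ratio of 1.14, 0.35 and 0.86 (mean 0.78 ± 0.400, SD, n = 3). For all gene-annotated peaks the same ratio was 1.28 ± 0.151. By level, 28 member peaks (41.2%, 30.3 to 53.0%) were in the upper quartile of all peaks, at 36.7 normalised reads or more, beside 32.5% of gene-annotated peaks. The lower quartile held 9 of them (13.2%), beside 20.6%.

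A CCAAT box lay within 50 bp of the centre of 42 member peaks (61.8%, 49.9 to 72.4%), beside 56.9% of gene-annotated peaks. In windows of the same length 1000 bp to the left and right of the member peaks, the share was 8.82% and 11.8%. Among member peaks of the upper quartile of level, 23 of 28 held a box at the centre (82.1%, 64.4 to 92.1%), and the 5 without one were those of *Ppp2r1a*, *Ppp2r5a*, *Ppp1r10*, *Dusp23* and the *Map2k3* peak 1048 bp upstream. Between the quartiles it was 15 of 31 (48.4%) and in the lower quartile 4 of 9 (44.4%). Over all gene-annotated peaks the same classes had 75.0%, 53.2% and 36.8%. Other motifs were searched in the same window on both strands: GGGCGG, the GC box of Sp factors, was found in 26.5% of member peaks and 28.5% of gene-annotated peaks. CAGCTG, an E-box, was found at 3 member peaks (4.41%, 1.51 to 12.2%) and at 11.3% of gene-annotated peaks, a share within that interval. Among promoter peaks alone the shares were 3.92% and 5.95%. TGACGTCA, the cAMP response element, was found at 2 member peaks (2.94%), those of *Ppm1d* and *Dusp8*, and at 0.969% of gene-annotated peaks.

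The 51 promoter peaks held 91 boxes. Of these, 40 lay within 150 bp upstream of the gene start, with a median of 81 bp upstream over all 91. They stood on the gene's strand in 48 cases and on the other strand in 43. Turned around, 34 of the 48 rule genes with a promoter peak (70.8%, 56.8 to 81.8%) held a CCAAT in the window from 250 bp before to 50 bp after the start, compared with 29 of the 146 without any peak (19.9%, 14.2 to 27.1%). For all coding genes these shares were 74.3% and 33.3%, and 39.1% of all 21938 windows held a CCAAT.

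**Figure D5:**
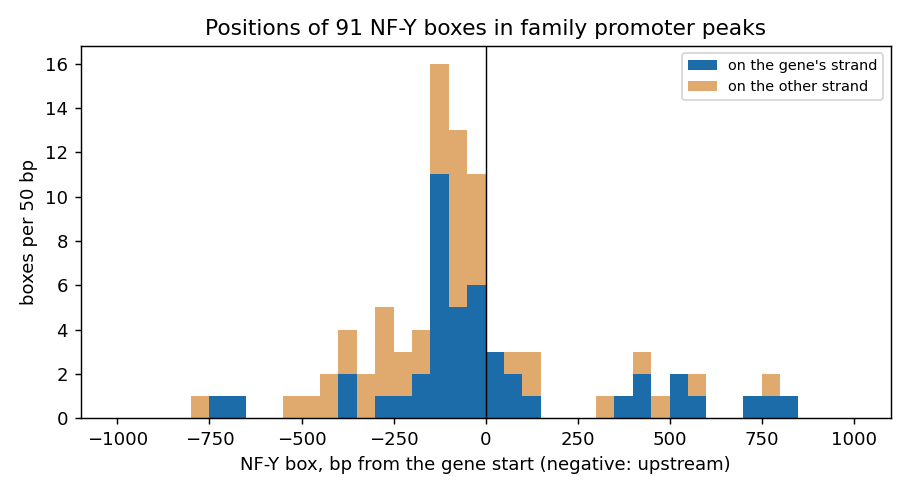
Number of CCAAT boxes (NF-Y boxes) per 50 bp in the 51 promoter peaks, against the distance from the gene start in bp, stacked by strand. Of the 91 boxes, 48 were on the gene's strand and 43 on the other, and they gather within 150 bp upstream of the start.

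The libraries ordered the member peaks alike. On the scale of log2(value + 1), Pearson's r over the 68 peaks was 0.924 for replicates 1 and 2, 0.931 for 1 and 3 and 0.945 for 2 and 3. These describe peaks that share libraries and are not correlations across samples. Over all gene-annotated peaks r was 0.904, 0.922 and 0.920. Between 8.82 and 10.3% of member peaks differed more than 2-fold within each pair of libraries, beside 12.3 to 15% of gene-annotated peaks. The median CV was 18.7%, compared with 22.7% for all gene-annotated peaks and with 20.3% from counting alone at the members' levels. Among the 15 highest peaks, replicate 1 had the lowest value in 10, and among all 68 it was lowest in 29 and highest in 19. Replicate 1 had been sequenced with shorter reads than the others. Per the paper it also had the fewest uniquely mapped reads and the most called peaks of the 3 libraries. By estimate it had the most reads in peaks, 481353. The part these differences play in the levels, and in which genes have a peak, was not tested.

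Other genes of the same signalling pathways, from a list of 69 genes outside the rule, had peaks at 24 (34.8%), beside 19.0% of all coding genes. This list too was written with earlier results of these data known, so its shares are no independent evidence. By role, 2 of 12 receptors and adaptors had a peak, 2 of 10 RAS and RAF genes, 1 of 6 feedback inhibitors, 7 of 13 kinase targets and transcription factors, and 12 of 28 phosphatases and phosphatase partners. The highest peak was that of *Ensa*, whose product inhibits PP2A with B55 in mitosis, with 452, 523 and 580 normalised reads. *Rps6ka5*, the gene of the kinase MSK1 downstream of ERK and p38, had 299, 375 and 387. *Shc1*, an adaptor of receptor tyrosine kinases, had 285, 325 and 347. *Cdc25c*, a phosphatase that starts mitosis, had 221, 275 and 251, and *Srf*, a transcription factor that responds to ERK signalling, had 148, 226 and 214 in a peak 3084 bp from its start.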

How the data were processed

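NF-YA CUT&RUN of cultured wild-type MuSCs was analysed in 3 of the 6 samples, all numbered replicates of 1 group, and the 3 IgG libraries were not analysed here. Per the methods and the labels, the authors trimmed reads with Trimmomatic 0.39, aligned them to mm10 with STAR 2.7.9a, removed duplicates with Picard 2.25.5, called peaks with MACS2 against IgG, unified them, counted reads with featureCounts and normalised with DESeq2 1.30.0. The deposited values, treated as a score, are reads per peak after scaling by library size factors and rounding to whole numbers, which hides any shift shared by every peak. Peaks were chosen on the same libraries whose levels are given. Each peak was annotated by the authors to the nearest gene with a start within 10000 nt. Counts of single peaks were not recovered, and no count model was used.

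All 68 member peaks passed, as no filter on low values was applied. The members and all gene lists were chosen with earlier results of these data known. Peaks described singly were the 15 highest, all peaks of 47 core genes, genes with 3 or more peaks, the 3 peaks of mean at least 10 with the largest span between libraries and the 5 highest peaks of the pathway list. Others are named to account for the members, of which 1 is not reported here singly. The box nearest to the peak centre was printed for the 8 highest promoter peaks and for named paralogs. Sequence and transcripts came from GRCm38.p6 and GENCODE M21, in which 6141 of 6191 annotated peaks carried a gene of identical start and end. Starts in the file count from 0, and printed positions count from 1. Columns of sample values that matched no sample numbered 0. Shares carry 95% Wilson intervals, which like the floors cover counting error only. The CV from counting was computed from the mean reads in the 3 libraries. Promoter limits of 500 and 5000 bp, windows of 100 bp, the longer consensus, a minimum mean of 10, scaling per kb or by the total of each library, and leaving out each replicate were tried. Python 3.11.15 was used with numpy 2.4.6, pandas 2.3.3, scipy 1.17.1, statsmodels 0.14.6, pysam 0.24.0 and matplotlib 3.10.9. The step of 1 read was tested on 8 simulated tables of 9056 peaks, with an error of at most 1.19%. The simulated steps all lay within the range searched. Smaller steps were not tried, because rounded values cannot tell them from larger ones. The motif search found both planted boxes in 200 of 200 simulated sequences.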

Additional observations from a re-analysis of the deposited data

How the results depend on the processing

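No result changed direction under the alternatives. The promoter share of member peaks rose from 75.0 to 86.8% with a limit of 5000 bp. The share with a CCAAT box was 73.5% over the whole peak and 38.2% with the longer consensus, compared with 61.8%. The log2 ratio of the member median over that of all gene-annotated peaks was 0.30 per kb of peak, 0.31 with a minimum mean of 10 and 0.05 among promoter peaks, and 0.37 to 0.46 when 1 replicate was left out. The ratio of promoter over other member peaks, 0.78, was 0.40 per kb of peak, 0.60 to 1.00 with 1 replicate left out and 1.18 when any annotated transcript start counted, an alternative chosen after seeing the data. The median CV fell to 15.5% with a minimum mean of 10 and was 12.6 to 18% with 1 replicate left out, where only 2 libraries remain. A change of the CV by up to 10% was taken as no change, and shares and ratios were held against their Wilson interval or 1 SD. At a median of 19 reads in replicate 2, weak peaks are barely resolved, and a gene without a peak may be bound below the level detected here. No paired analysis was possible because the values are of 1 group only.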

Other observations

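Some strong peaks lay near starts of kinase and phosphatase genes but were assigned elsewhere or to no gene. At *Map3k12*, a peak at chromosome 15, 102517678 to 102518430, was assigned to *Tarbp2* and had 212, 262 and 197 normalised reads, above the 33, 49 and 54 of the peak that carried the symbol *Map3k12*. Inside *Ptprs*, a peak at chromosome 17, 56462204 to 56462790, close to an annotated start of a *Ptprs* transcript, had 141, 142 and 149 and was assigned to no gene. It held no CCAAT within 50 bp of its centre. Peaks close to *Dusp19*, with 55, 56 and 44, and to *Map3k11*, with 35, 49 and 42, were assigned to *Nup35* and *Pcnx3*. A peak close to *Ppp1r14b*, with 24, 28 and 33, was assigned to *Plcb3*.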
